A study of Mus musculus with 2 samples.

Results

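The cells described here are splenic CD8 T cells of the mouse that carry RNA for Ccl5, a chemokine that memory CD8 T cells keep ready for release. They were chosen by raw transcript counts in each cell. A member had at least 2 unique molecular identifiers (UMIs, each marking 1 captured RNA molecule) of Cd3d, Cd3e and Cd3g together, at least 1 UMI of Cd8a or Cd8b1, and at least 3 of Ccl5. It had no UMI of Cd79a, Ms4a1, Cd4 or Trdc. This gave 315 members of 1005 CD8 T cells passing the same gate without Ccl5, and of 18316 kept spleen cells in all. The 182 members of the knock-in library and the 133 of the wild-type library are described across genes, against the 690 CD8 T cells with fewer than 3 Ccl5 UMIs and against 111 natural killer (NK) cells.

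The series holds 1 library of spleen cells from M694I knock-in mice and 1 from wild-type controls of matched age, with no age, zygosity or strain background stated in the labels. M694I is a change in Mefv, the gene for pyrin, a sensor that starts an inflammasome; in people this change underlies familial Mediterranean fever. The mice were kept free of specific pathogens, both library titles name 1 mouse, and the labels name no treatment. Single-cell transcript 3' ends were sequenced with 10x Genomics chemistry. Each genotype has 1 library, so no significance test could be made. The 95% intervals are exact and reflect counting error alone, and the values compare these libraries rather than genotypes. Cells of 1 library share their mouse, preparation and depth and are not replicates of a genotype.

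Memory CD8 T cells arise from naive cells after antigen contact, or from the cytokine-driven expansion of cells that never met their antigen, and both kinds live in the spleen of clean mice. The T-box factors Eomes and T-bet and the shared interleukin 2 and interleukin 15 receptor chain Il2rb maintain them. Central memory cells keep the lymph node homing receptor Ccr7, while effector cells give it up and hold granzymes and perforin. Granzyme K (Gzmk) marks a subset of antigen-experienced CD8 T cells.

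The knock-in library held 9000 barcodes, of which 8583 cells were kept, with a median of 2049 UMIs. The wild-type library held 10449 barcodes, of which 9733 cells were kept, with a median of 2557 UMIs. Members were deeper than the other CD8 T cells, with medians of 4117.5 and 2893.5 UMIs in the knock-in library and 4393 and 3419 in the wild-type library. NK cells were shallower than members, at 1864 and 2487 UMIs. A total of 27 barcode sequences occurred in both libraries, and 1 knock-in member and 0 wild-type members were among them. Scrublet marked 173 knock-in cells (2.02%) and 232 wild-type cells (2.38%) as doublets, with 0 members among them in either library. The 182 knock-in members held 1 Mefv UMI and the 133 wild-type members 0, so the targeted gene gives no check of the labels in these cells.

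Members made up 31.7% of gated CD8 T cells (95% interval 27.9 to 35.7) in the knock-in library and 30.9% (26.5 to 35.5) in the wild-type library. The shares overlapped, with a log2 ratio of 0.04 (-0.29 to 0.37). Of all kept cells, members made up 2.12% (1.83 to 2.45) in the knock-in library and 1.37% (1.15 to 1.62) in the wild-type library. This was 1.55-fold higher in the knock-in library, a log2 ratio of 0.63 (0.30 to 0.97). The gated CD8 T cells as a whole stood at 6.69% and 4.43% of kept cells, a ratio of 1.51, so the share of members within CD8 T cells was close between the libraries while the share of CD8 T cells among spleen cells was not. Shares of kept cells depend on how many other cells each preparation yielded, and their part in this was not tested.

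Ccl5 was spread widely among members. The median member held 25.5 Ccl5 UMIs in the knock-in library (lowest 3, highest 214) and 20 in the wild-type library (lowest 3, highest 341). Among gated CD8 T cells, 352 in the knock-in library (61.3%) and 262 in the wild-type library (60.8%) had no Ccl5 UMI. Few cells stood near the threshold: 10 knock-in and 9 wild-type cells had 2 Ccl5 UMIs, and 7 and 5 cells had 3. In the knock-in library Ctla2a stood at 155.3 CPM (UMIs of a gene per 1000000 UMIs summed over the cells of a class) in the cells at 3 and at 566.7 CPM in those at 2, and in the wild-type library at 679.9 and 457.8 CPM. The libraries thus gave opposite orders, and these few cells show no step in Ctla2a at the threshold. Among B cells, which should lack the gene, 2.10% in the knock-in library and 3.90% in the wild-type library held any Ccl5 UMI, at median depths of 1887 and 2367.5 UMIs, and 0.647% and 0.720% held 3 or more.

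**Figure D1:**
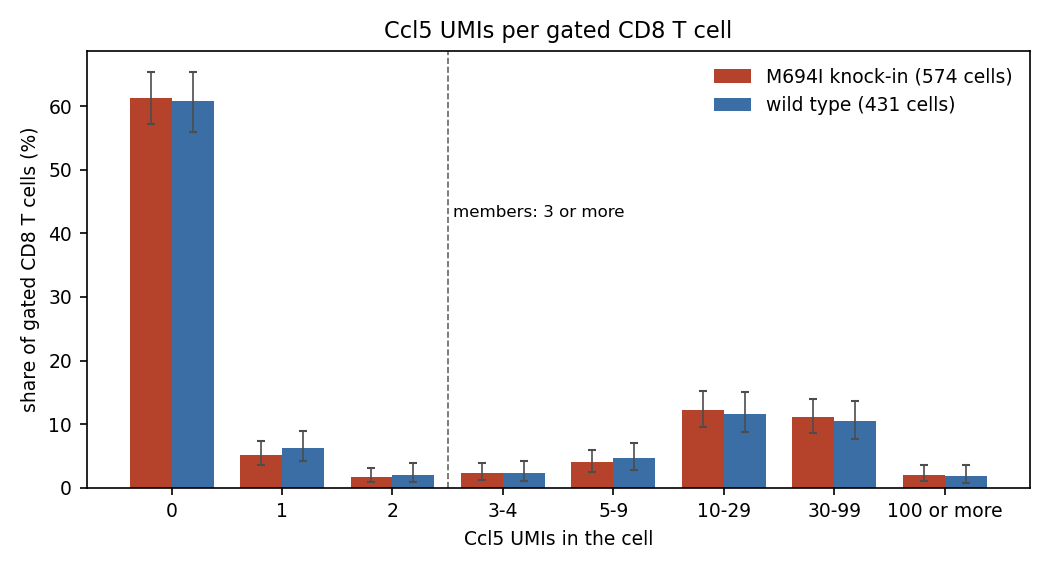
Share of gated CD8 T cells (y axis, %) by the Ccl5 UMIs in the cell (x axis) for 574 knock-in and 431 wild-type cells; error bars are exact 95% binomial intervals and the dashed line is the threshold of 3. Cells with 0 Ccl5 UMIs made up 61.3% and 60.8%, and the intervals of the libraries overlap in every bin.

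The label of memory CD8 T cells was set beside markers the rule did not use. These cells were chosen with earlier results of these data known, so the markers are no independent check. Besides Ccl5, the markers given for these cells are Eomes, Klrc1 (an inhibitory lectin receptor that pairs with CD94) and Ctla2a (a cysteine protease inhibitor). At least 1 UMI of these 3 was found in 158 of 182 knock-in members (86.8%) and 114 of 133 wild-type members (85.7%), against 94 of 392 and 98 of 298 (32.9%) of the other CD8 T cells. All 3 were found together in 21 knock-in members (11.5%) and 11 wild-type members (8.27%). Ctla2a was held by 81.3% of knock-in and 83.5% of wild-type members, Eomes by 39.0% and 36.1%, and Klrc1 by 24.2% and 18.8%. In B cells, at the median depths given above, the same genes were found in at most 1.02% of cells. Since members were deeper than the other CD8 T cells, the shares were also taken after thinning each cell to 1000 UMIs. Ctla2a was then found in 55.8% of knock-in and 50.4% of wild-type members, against 8.44% and 12.1% of the other CD8 T cells. Eomes was then found in 8.84% and 12.0% of members, against 2.56% and 5.05%. Most members thus carried a marker beyond Ccl5, but Eomes and Klrc1 each gave a UMI in fewer members than Ctla2a.

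Members carried Trac and Trbc2, the constant segments of the T cell receptor. Trac gave a UMI in 83.0% of knock-in and 85.7% of wild-type members, and Trbc2 in 93.4% and 92.5%. Cd44, a marker of memory T cells of either origin, was found in 29.1% and 34.6% of members, against 6.63% and 6.71% of CD8 T cells with less Ccl5. Thinned, these shares were 8.29% and 17.3% against 2.30% and 2.02%. Cd44 is not particular to T cells and was found in 16.8% and 21.4% of B cells. Ccr7 was found in 61.5% of knock-in and 62.4% of wild-type members, against 6.38% and 3.13% of NK cells. Gzma or Gzmb was found in 21 knock-in members (11.5%) and 10 wild-type members (7.52%). By these counts most members kept Ccr7 and few held granzymes A or B.

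Markers of other cell types were low in members, with single-cell exceptions. The NK list summed to 161 CPM in knock-in members and 436 CPM in wild-type members, against 16780 and 13790 CPM in NK cells. In the wild-type library, 196 of the 261 NK list UMIs were Gzma in 1 cell. Ncr1, which defines NK cells, was at 0 UMIs in members of both libraries, and Klrb1c (NK1.1) gave 2 UMIs in knock-in and 1 in wild-type members. The B cell list stood at 505 CPM in knock-in and 147 CPM in wild-type members, against 278 and 255 CPM in the other CD8 T cells, and 1 knock-in cell held 258 of its 405 UMIs. The myeloid list stood at 327 and 85.1 CPM, and 1 knock-in cell held 194 of its 262 UMIs. Zbtb16 and the receptor segments of NKT and MAIT cells were at 0 UMIs in both libraries. A UMI of any Trav segment was found in only 12.1% of knock-in and 15.0% of wild-type members, so the 0 for these segments says little.

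Compared with the other CD8 T cells of the same library, members carried more RNA for cytotoxic and memory genes and less for naive genes. A gene counted as higher or lower where its CPM differed at least 1.5-fold in the same direction in both libraries, among 2132 genes with a mean of at least 50 CPM and at least 40 UMIs. Of these, 55 genes (2.58%) were higher and 49 (2.3%) lower in members, and the median log2 ratio of all tested genes was -0.05. The floor is set on the mean of both groups, so a gene low in one of them can pass through the other.

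The largest ratio after that of Ccl5 itself, and of Gzma, which rests on few cells, was that of Nrarp, an inhibitor and target of Notch signalling. Nrarp stood at 189.5 CPM in knock-in members against 12.6 CPM in the other CD8 T cells, and at 147 against 11.2 CPM in the wild-type library. Its log2 ratios were 3.92 (3.17 to 4.76) and 3.72 (2.87 to 4.68). Nrarp was found in 40.1% of knock-in and 36.1% of wild-type members. It was thus found in about as many members as Eomes, although no list held it.

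Of 21 tested genes of the memory list, 11 were higher in members and 0 lower, with median log2 ratios of 0.88 in the knock-in and 0.99 in the wild-type library. The 11 were Eomes, Il2rb, Cd44, Ly6c2, Ctla2a, Ctla2b, Bhlhe40, S100a6, Ahnak, Lgals1 and Itgb1. Ctla2a stood at 938 CPM in knock-in members against 131 CPM in the other cells, and at 895 against 217 CPM in the wild-type library. S100a6, a calcium-binding protein, stood at 454 against 76.2 CPM and at 267 against 29.2 CPM. Ly6c2, an antigen of memory T cells and monocytes, stood at 669.5 against 240.3 CPM and at 603 against 172 CPM. Both libraries therefore gave the same order, with members several-fold above the other cells. Il2rb had log2 ratios of 1.54 (1.19 to 1.90) and 1.35 (1.02 to 1.68), and Eomes of 2.09 (1.57 to 2.63) and 1.00 (0.51 to 1.48). Il7r, the interleukin 7 receptor, was close in the compared cells, at 489 against 514 CPM and at 494 against 457 CPM.

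The cytotoxic list had 5 of 8 tested genes higher and 0 lower, with medians of 1.04 and 1.63; Ccl5, which the rule used, is one of the 5, beside Gzma, Nkg7, Ctsw and Xcl1. Nkg7, a protein of cytotoxic granules, stood at 689.5 CPM in knock-in members against 300.8 CPM in the other cells, and at 566 against 159.8 CPM in the wild-type library. Xcl1, a chemokine that draws cross-presenting dendritic cells, stood at 108.5 against 13.4 CPM and at 100.2 against 36.9 CPM. Ctsw, a cathepsin of cytotoxic cells, had log2 ratios of 0.88 and 0.95. Perforin was low in both groups: Prf1 stood at 24.9 CPM in knock-in members against 13.4 CPM, and at 25 against 17.2 CPM in the wild-type library. Gzma rested on few cells, with UMIs in 9 knock-in and 7 wild-type members, and 1 wild-type cell held 196 of the 211 UMIs there. Members were thus marked by Nkg7, Xcl1 and Ctsw more than by perforin.

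Most natural killer lectin genes were too low to be tested, with 1 of 26 passing the floor. Klrc1 missed the floor but separated the groups by count: 94 UMIs in 44 knock-in members against 3 UMIs in the other cells, and 41 UMIs in 25 wild-type members against 6. Klra7, an inhibitory receptor for MHC class I, gave 20 UMIs in 16 knock-in members and 20 in 14 wild-type members, and 0 in the other CD8 T cells of either library. With those zeros placed at 3 counts per library, it was at least 10.6-fold higher in knock-in and at least 13.0-fold higher in wild-type members. Klrd1, the CD94 partner of Klrc1, did not follow it, at 134.7 CPM in knock-in members against 167 CPM, and at 155 against 123 CPM in the wild-type library.

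Of 15 tested genes of the naive list, 0 were higher and 5 lower in members, namely Ccr7, Lef1, Igfbp4, Dapl1 and Actn1, with medians of -0.43 and -0.50. Igfbp4, a binding protein for insulin-like growth factors, stood at 13.7 CPM in knock-in members against 201 CPM in the other cells, and at 11.7 against 84.2 CPM in the wild-type library. Ccr7 stood at 413 against 768 CPM and at 362 against 724 CPM, so members kept more than a trace of it. Tcf7, a factor of naive and central memory T cells, had log2 ratios of -0.47 and -0.46 and did not pass the 1.5-fold limit.

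Cytokine receptors stood on both sides. Ifngr2, the signalling chain of the interferon gamma receptor, stood at 18.7 CPM in knock-in members against 160.2 CPM in the other cells, and at 16.7 against 143 CPM in the wild-type library. Ifngr1, the ligand-binding chain, stood at 818 against 486 CPM and at 666 against 394 CPM. The log2 ratio of Ifngr2 was -3.10 in both libraries (-3.96 to -2.34 and -4.18 to -2.18), while that of Ifngr1 was 0.75 and 0.76. The chains of this receptor thus stood apart in opposite directions. Of 10 tested interferon gamma response genes, Ifngr1 was higher and none was lower; of 9 tested type I interferon genes, 0 were higher. The median of the type I list was -0.47 and -0.20, against -0.02 and -0.08 for all tested genes in the knock-in and wild-type libraries.

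Other lists gave few genes. Among 13 tested residency genes, Itgal, Itgb2 and Cxcr4 were higher and Ccr7 lower. Of 6 tested checkpoint genes, Ctla4 and Slamf6 were lower. Of 24 tested T cell receptor signalling genes, Sh2d2a, an adaptor, was higher, at 514 against 269 CPM in the knock-in library and 459 against 241 CPM in the wild-type library. None of 13 tested MHC class I genes and none of 7 tested cell cycle genes passed the limit in either direction. Depth differed between the groups, and with each cell thinned to 1000 UMIs 42 of 204 knock-in and 20 of 121 wild-type CD8 T cells met the rule (20.6% and 16.5%).

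**Figure D2:**
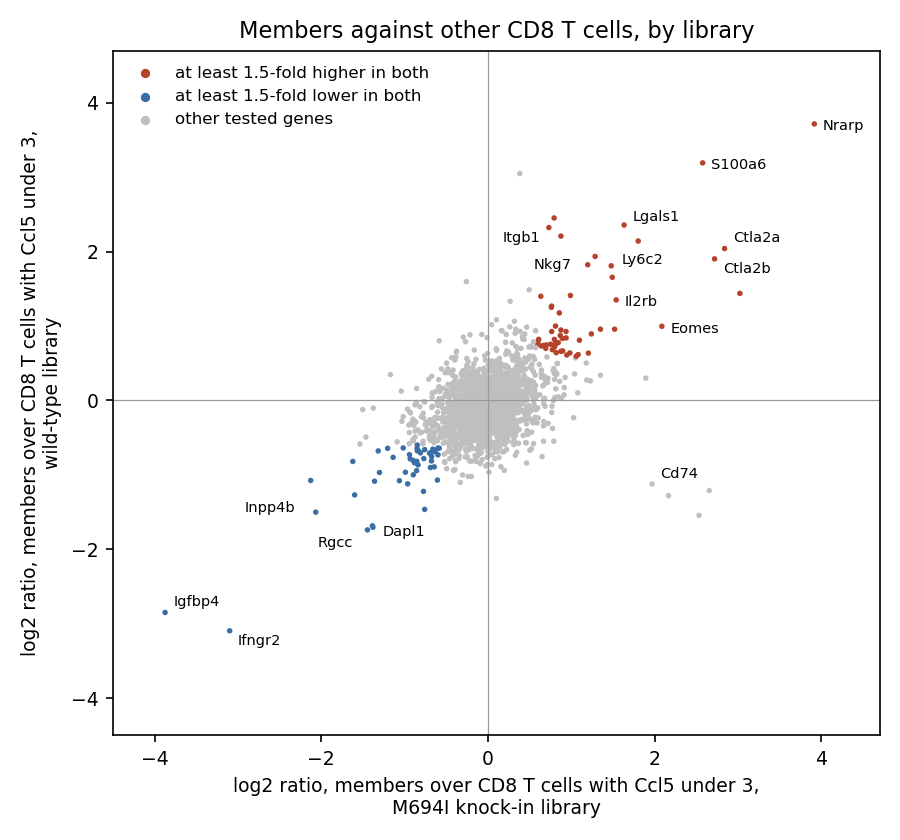
Each point is 1 tested gene, with its log2 ratio of members over CD8 T cells with fewer than 3 Ccl5 UMIs in the knock-in library (x axis) and in the wild-type library (y axis); Ccl5 is left out because the rule used it, and Gzma lies beyond the axes. Nrarp (3.92, 3.72) and Ctla2a (2.84, 2.04) are high in both libraries and Igfbp4 (-3.87, -2.85) and Ifngr2 (-3.10, -3.10) low in both, while Cd74 (1.97, -1.12) lies on opposite sides of 0.

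The deposited tables are tied to the genome through gene identifiers. On GRCm38, Ccl5 (ENSMUSG00000035042) lies on chromosome 11, 83525778 to 83530518, minus strand; Nkg7 (ENSMUSG00000004612) on chromosome 7, 43437073 to 43438249, plus strand; and Klrc1 (ENSMUSG00000030167) on chromosome 6, 129666015 to 129678973, minus strand. Gzmk (ENSMUSG00000042385) lies on chromosome 13, 113171608 to 113225908, minus strand. Eomes binds DNA through a T-box domain, whose core motif is GGTGTGA. The RefSeq promoter windows on GRCm38.p6, from 250 bases before to 50 bases after a start, of 3 genes that were higher with Ccl5 are shown so that this motif can be seen in them (capitals). They span chr7:43436888-43437187 for Nkg7 on the plus strand, chr13:113180916-113181215 for Gzmk on the minus strand and chr6:129678924-129679223 for Klrc1 on the minus strand.
Nkg7: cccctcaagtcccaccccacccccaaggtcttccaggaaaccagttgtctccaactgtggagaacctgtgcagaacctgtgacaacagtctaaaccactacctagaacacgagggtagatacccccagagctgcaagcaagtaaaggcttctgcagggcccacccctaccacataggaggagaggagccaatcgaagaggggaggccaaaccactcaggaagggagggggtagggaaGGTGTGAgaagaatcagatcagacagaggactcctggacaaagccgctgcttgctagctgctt
Gzmk: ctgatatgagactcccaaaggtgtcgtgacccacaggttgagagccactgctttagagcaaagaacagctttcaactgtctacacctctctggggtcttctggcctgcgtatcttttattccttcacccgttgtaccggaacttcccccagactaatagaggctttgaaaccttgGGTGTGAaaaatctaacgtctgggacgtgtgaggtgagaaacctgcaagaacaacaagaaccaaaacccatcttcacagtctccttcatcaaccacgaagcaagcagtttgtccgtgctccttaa
Klrc1: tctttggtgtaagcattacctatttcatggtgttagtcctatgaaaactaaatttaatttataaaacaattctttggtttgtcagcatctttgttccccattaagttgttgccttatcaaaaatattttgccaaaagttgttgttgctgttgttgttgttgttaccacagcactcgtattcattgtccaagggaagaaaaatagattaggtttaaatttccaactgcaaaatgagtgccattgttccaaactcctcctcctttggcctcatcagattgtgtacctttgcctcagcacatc

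The motif, searched on both strands, starts at base 238 of the Nkg7 window and at base 176 of the Gzmk window, and these letters are not in the Klrc1 window or in the windows of Ctla2a, Cxcr3, Eomes and Igfbp4. It was chosen after these windows had been read. Of all 32851 promoter windows, 1307 (3.98%) hold it, and of 27025 genes 1244 (4.6%) have a window with it. Of the 55 genes higher in members, 37 had a window and 4 of these (10.8%) held the motif; of the 49 lower genes, 42 had one and 2 (4.76%) held it. A match describes letters and not a bound site.

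Within CD8 T cells, levels of other genes went with the number of Ccl5 UMIs, also among members themselves. Nkg7 stood at 263.9 CPM in knock-in CD8 T cells without Ccl5, at 424.2 CPM in cells with 3 to 9 Ccl5 UMIs, at 541.7 CPM with 10 to 29 and at 958 CPM with 30 or more. In the wild-type library the same bins gave 161.8, 332, 420.7 and 819.3 CPM. Klrc1 and S100a6 were highest in the top bin: Klrc1 stood at 222.9 CPM in knock-in and 125 CPM in wild-type cells with 30 or more Ccl5 UMIs, against 62.8 and 27.4 CPM with 10 to 29. S100a6 stood at 849.6 and 439.9 CPM in the top bin, against 241 and 155.5 CPM in the bin below. A sizeable part of the members' S100a6 UMIs lay in 5 knock-in and 3 wild-type members rich in cell cycle RNA, described below. Without them, Gzmk-positive and Gzmk-negative members held 16 and 226 S100a6 UMIs in the knock-in library and 10 and 88 in the wild-type library. How far those cells set the top bin was not tested.

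Ly6c2 instead stood near its level for members from the lowest member bin on, at 645 CPM in knock-in and 513 CPM in wild-type cells with 3 to 9 Ccl5 UMIs and at 689.9 and 561 CPM with 30 or more, against 201.6 and 144 CPM in cells without Ccl5. Nrarp stood at 113.5 and 136 CPM with 3 to 9 Ccl5 UMIs, against 22.0 and 6.15 CPM with 1 or 2. Naive genes were lowest where Ccl5 was highest: Ccr7 stood at 226 CPM in knock-in and 202 CPM in wild-type cells of the top bin, against 687 and 581 CPM with 3 to 9 Ccl5 UMIs. Dapl1 was at 6.03 and 32.3 CPM in the top bin, against 299 and 128 CPM with 3 to 9. Il7r was also lowest in the top bin, at 371 and 404 CPM, against 556 and 649 CPM with 3 to 9 Ccl5 UMIs and 528 and 449 CPM without Ccl5. Members with few Ccl5 UMIs thus held more of these naive transcripts than members with many. Median depth was 3899.5, 4370 and 4046 UMIs over the member bins of the knock-in library and 4373.5, 4338.5 and 4786 in the wild-type library; a deeper cell gives more UMIs of every gene, Ccl5 included, and the part of depth in this order was not tested.

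**Figure D3:**
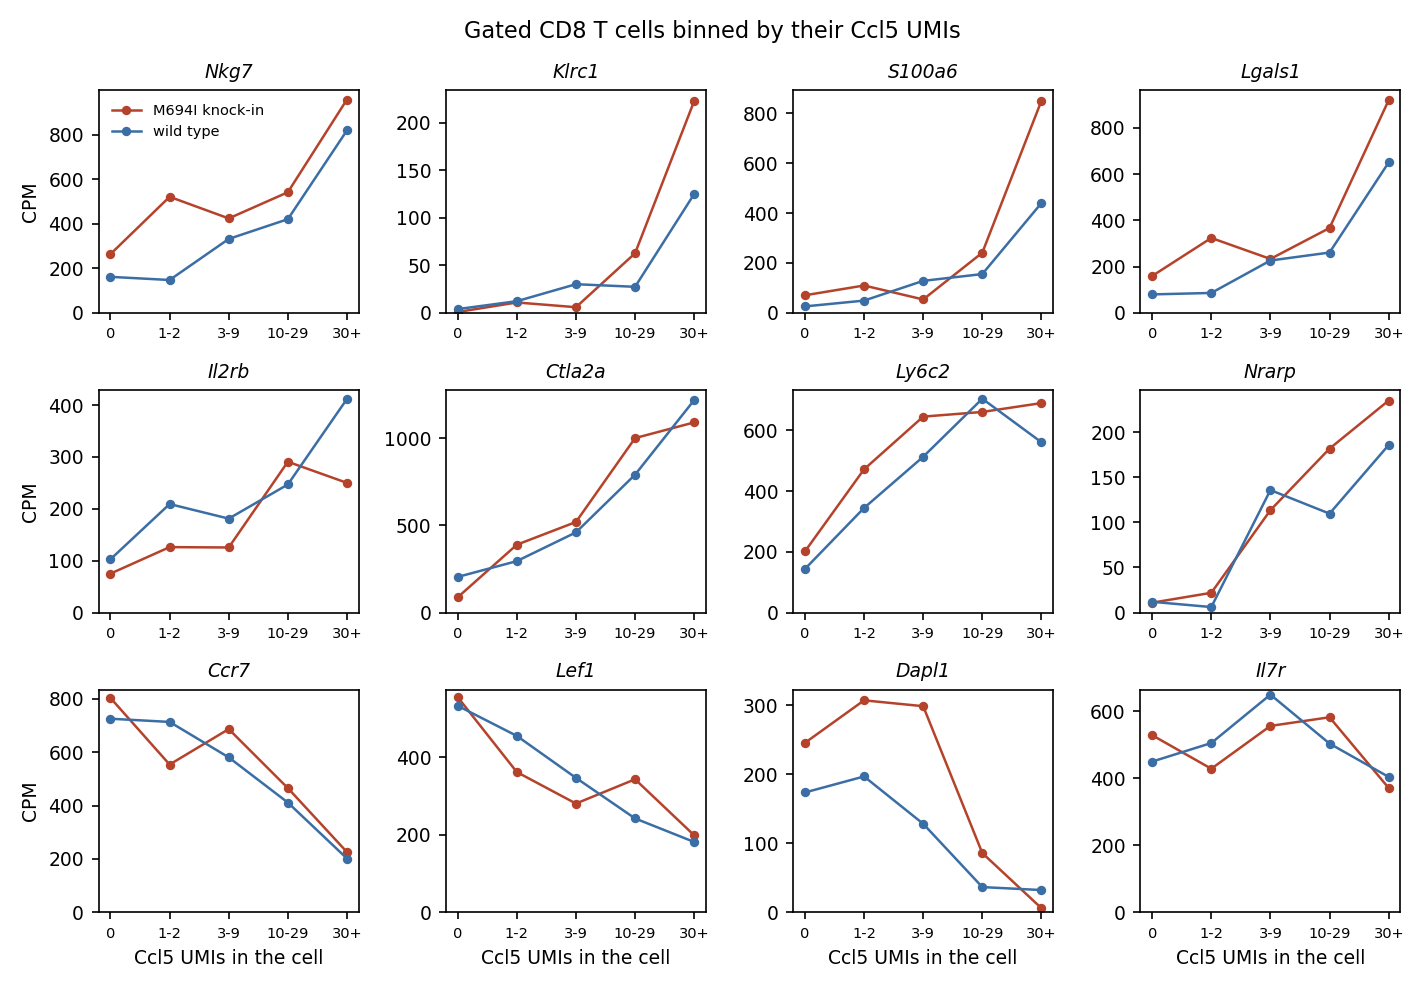
CPM of 12 genes (y axes) in gated CD8 T cells binned by their Ccl5 UMIs (x axis; 352, 40, 36, 70 and 76 knock-in cells and 262, 36, 30, 50 and 53 wild-type cells, from the lowest bin up). Nkg7, Klrc1 and S100a6 peak in the bin of 30 or more in both libraries, Ly6c2 lies between 513 and 704 CPM from 3 to 9 on, and Ccr7 and Dapl1 are lowest in the top bin.

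NK cells share Ccl5, Nkg7 and Eomes with these T cells, and every NK cell of both libraries held a Ccl5 UMI. They were gated here without Cd3 and with at least 2 UMIs of Ncr1 and Klrb1c, so those genes differ by the rule. Ccl5 stood at 8483 CPM in knock-in members against 23890 CPM in NK cells, and at 7735 against 19600 CPM in the wild-type library. Among 2440 tested genes, 140 (5.74%) were higher and 604 (24.8%) lower in members than in NK cells, with a median log2 ratio of -0.41 over all of them. This split depends on the scaling. Ribosomal protein genes made up 42.0% of knock-in and 44.7% of wild-type members' UMIs, against 23.6% and 24.6% in NK cells. TMM factors moved every log2 ratio up by 0.49 and 0.54, which gave 323 higher and 218 lower genes, and a total without ribosomal protein and mitochondrial genes gave 300 and 232.

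Effector molecules were far lower in members than in NK cells at either scaling. Perforin (Prf1) stood at 24.9 CPM in knock-in members against 572.5 CPM in NK cells, and at 25 against 449 CPM in the wild-type library. Gzmb stood at 62.3 against 1027 CPM and at 45.1 against 649 CPM. Ifng stood at 8.73 against 464 CPM and at 20.0 against 173 CPM. Of 17 tested cytotoxic genes, which can pass the floor through NK cells alone, 13 were lower in members and 1 was higher. That 1, Gzmm or granzyme M, stood at 104.7 CPM in knock-in members against 39.5 CPM, and at 56.8 against 32.5 CPM in the wild-type library. Among killer lectin receptors that did not gate the NK cells, Klrd1 had log2 ratios of -1.99 and -1.91 and Klrk1, the NKG2D receptor, of -3.11 and -4.45.

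Eomes was lower in members too, at 143 CPM against 316 CPM in the knock-in library and 125 against 433 CPM in the wild-type library. Ctla2a was close, with log2 ratios of -0.49 and -0.24, and its sign depends on the scaling. Some genes of naive and memory T cells stood the other way: Il7r was at 489 CPM in knock-in members against 118 CPM in NK cells and at 494 against 37.9 CPM in the wild-type library. Tcf7 had log2 ratios of 1.53 and 1.70, Lef1 of 3.19 and 2.30 and Ccr7 of 3.06 and 3.26. The memory list as a whole did not follow them: of 26 tested genes 5 were higher and 13 lower in members, with medians of -0.55 and -1.18. Irf8, a factor of NK and myeloid cells, stood at 22.4 against 1165 CPM and at 15.0 against 1574 CPM. Tyrobp, the signalling adaptor of NK receptors, stood at 19.95 against 3218 CPM and at 13.4 against 2564 CPM. Members and NK cells thus shared Ccl5, Nkg7 and Eomes at unequal levels and stood far apart in Tyrobp, Klrk1 and Prf1.

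Between the libraries, several genes that mark these cells were close, while Klrc1, Cxcr3 and Tbx21 were found in a larger share of knock-in members. Tbx21, the gene for T-bet, gave a UMI in 21 knock-in members (11.5%, 7.3 to 17.1). It did so in 5 wild-type members (3.76%, 1.2 to 8.6). Ctla2a gave 752 UMIs in knock-in and 536 in wild-type members, a log2 ratio of CPM of 0.07 (-0.09 to 0.23). Eomes had a ratio of 0.20 (-0.24 to 0.64), Ly6c2 of 0.15, Il7r of -0.02 and Tcf7 of 0.04. Klrc1 had the largest ratio of the 3 given markers that the rule did not use, with 94 UMIs in 44 knock-in members and 41 UMIs in 25 wild-type members, a ratio of 0.78 (0.23 to 1.34). In the other CD8 T cells Eomes and Ctla2a stood lower in the knock-in library, at -0.89 (-1.47 to -0.33) and -0.73 (-1.02 to -0.44); the difference from the members' ratios was not tested.

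Among 2083 tested genes, 174 (8.35%) were at least 1.5-fold higher and 92 (4.42%) lower in knock-in than in wild-type members, with a median log2 ratio of 0.10. With a total that leaves out ribosomal protein and mitochondrial genes the counts were 115 and 135, so the balance of directions depends on the scaling. In the other CD8 T cells 129 of 2177 genes (5.93%) were higher and 79 (3.63%) lower, and these cells come from the same libraries. Genotype, mouse and library cannot be told apart here.

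Of the cytotoxic list, 11 of 20 genes were tested, and Gzmm and Ctsw were higher and Gzma and Ccl4 lower in knock-in members, with a median of 0.29. Gzmm gave 84 UMIs in knock-in and 34 in wild-type members (104.7 and 56.8 CPM), a ratio of 0.88 (0.29 to 1.5). Ctsw had a ratio of 0.66 (0.35 to 0.97) in members and 0.73 in the other CD8 T cells. Ccl4, a chemokine of activated T cells, gave 32 UMIs in knock-in and 81 in wild-type members (39.9 and 135 CPM), a ratio of -1.76 (-2.40 to -1.15), against 0.91 (0.08 to 1.78) in the other CD8 T cells; thinned to 1000 UMIs, the ratio in members was -0.81. Gzma had a ratio of -2.39 that rests on 1 wild-type cell: without the highest cell of each library it was 1.00. Genes of this list therefore stood on both sides of 0.

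Of 23 tested memory genes, 2 stood higher in knock-in members and none lower, and the list's median was 0.04. Cxcr3, a chemokine receptor that guides memory and effector T cells to sites of interferon, gave 75 UMIs in 52 knock-in members (28.6%) and 22 UMIs in 20 wild-type members (15.0%), against 0.899% and 0.297% of B cells. Its ratio was 1.35 (0.65 to 2.11) in members and 1.24 (0.24 to 2.34) in the other CD8 T cells. S100a6 gave 364 and 160 UMIs, a ratio of 0.77 in members and 1.38 in the other CD8 T cells. Both genes were thus higher in knock-in cells on either side of the Ccl5 threshold.

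Interferon-related genes stood higher in the knock-in library for a few genes of each list. Of 8 tested type I interferon genes out of 48, Irf7 and Bst2 were higher; none was lower, and the list's median was 0.30. Irf7, the factor that amplifies type I interferon, gave 60 UMIs in knock-in and 22 in wild-type members, a ratio of 1.03 (0.30 to 1.80), and Bst2, a viral restriction factor, had 0.86 (0.29 to 1.46). Ly6a gave 27 UMIs in 19 of 182 knock-in members (10.4%) and 3 UMIs in 3 of 133 wild-type members (2.26%). It was found in 36 of 392 (9.18%) and 7 of 298 (2.35%) of the other CD8 T cells and, at a higher share, in 31.4% and 23.5% of B cells, and what free RNA adds to the members' counts was not tested. Of 10 tested interferon gamma genes, 3 were higher, all subunits of the immunoproteasome, which cuts peptides for MHC class I. Psmb8 gave 297 UMIs in knock-in and 112 in wild-type members (370 and 187 CPM), a ratio of 0.99 (0.67 to 1.31); Psmb10 had 1.01 (0.39 to 1.67) and Psmb9 0.76 (0.28 to 1.27). In the other CD8 T cells the 3 subunits had ratios of 1.2 for Psmb8, 0.88 for Psmb10 and 0.99 for Psmb9. None of 12 tested MHC class I genes passed the limit in members, with a median of 0.23.

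Other lists gave 1 or a few genes. Pycard, the ASC adaptor of inflammasomes, gave 103 UMIs in knock-in and 46 in wild-type members, a ratio of 0.74 (0.23 to 1.28), against 0.97 in the other CD8 T cells; it was the only 1 of 4 tested inflammasome genes to pass. Stat5b, a factor downstream of interleukin 2 and 15, gave 26 and 42 UMIs, a ratio of -1.11 that was 0.14 after thinning. Il2rb had a ratio of -0.33 (-0.63 to -0.03) in members and -0.51 in the other CD8 T cells. Among the largest ratios, Etfb, a mitochondrial electron carrier, gave 74 UMIs in knock-in and 19 in wild-type members, a ratio of 1.54 (0.80 to 2.35), against 0.20 in the other CD8 T cells. Lars2, the mitochondrial leucyl-tRNA synthetase, gave 159 and 313 UMIs (198 and 522.5 CPM), a ratio of -1.40 (-1.68 to -1.12), against -0.42 (-0.57 to -0.28). Ikzf2, the Helios factor, gave 40 and 67 UMIs, a ratio of -1.17, against 0.69 in the other CD8 T cells. With members taken at 10 or more Ccl5 UMIs it was -0.55, within the 1.5-fold limit.

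**Figure D4:**
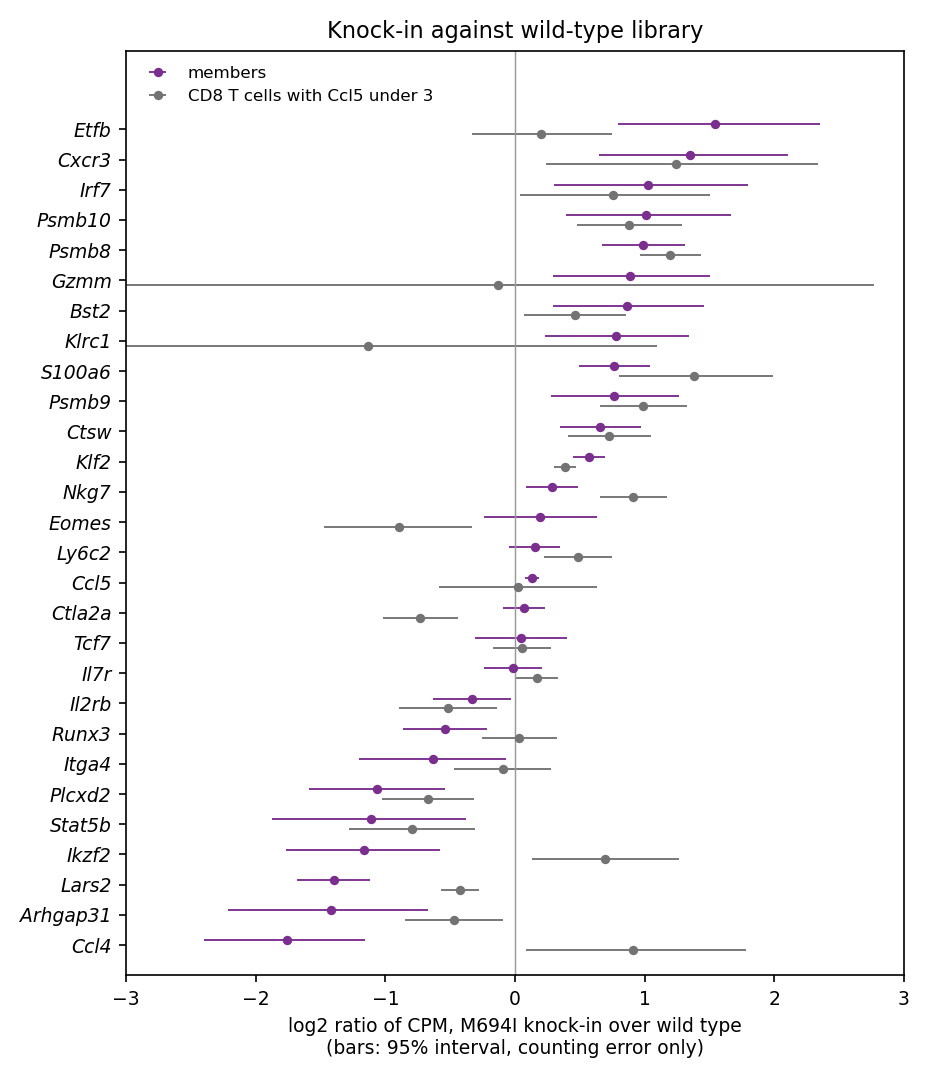
Log2 ratio of CPM, knock-in over wild-type library (x axis), of 28 genes (y axis) in members and in CD8 T cells with fewer than 3 Ccl5 UMIs; bars are exact 95% intervals for counting error only, and those of Gzmm and Klrc1 in the other cells run past the axis. Cxcr3 (1.35 and 1.24) and Psmb8 (0.99 and 1.2) are high in both kinds of cells, while Ccl4 (-1.76 and 0.91) and Ikzf2 (-1.17 and 0.69) lie on opposite sides of 0.

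The highest ratios among tested genes belonged to MHC class II genes and came from 1 cell. Knock-in members held 600 UMIs of Cd74, H2-Aa, H2-Ab1 and H2-Eb1, and 518 of them were in 1 cell of 9782 UMIs. That cell also held 189 of the 255 Cst3 UMIs, together with 180 of Ccl5, 3 of Cd8a and 2 of Cd3d. Wild-type members held 73 class II UMIs over 61 cells, with at most 3 in a cell. Cd74 had a ratio of 2.63 with this cell and -0.41 without the highest cell of each library, and H2-Aa of 2.67 and 0.03. A cell with these counts carries transcripts of both a CD8 T cell and an antigen-presenting cell, and it was not among the Scrublet doublets.

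Gzmk was found in 8 of 182 knock-in members (4.40%, 95% interval 1.92 to 8.48) and in 7 of 133 wild-type members (5.26%, 2.14 to 10.5), with 28 and 11 UMIs. The shares overlapped. Among B cells 1 of 5561 knock-in cells and 0 of 6392 wild-type cells held Gzmk, and among CD8 T cells with less Ccl5 2 and 0 did. Of the 15 cells, 7 knock-in and 6 wild-type cells had 30 or more Ccl5 UMIs, where they made up 9.21% and 11.3% of cells. The median Gzmk-positive member held 107 Ccl5 UMIs in the knock-in and 122 in the wild-type library. Everything that follows on these cells rests on 15 cells, and a count from 1 cell can set a value.

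Gzmk-positive members carried more effector RNA and less naive RNA than Gzmk-negative members. Nkg7 stood at 1551 CPM in Gzmk-positive against 631 CPM in Gzmk-negative knock-in members, and at 2322 against 443 CPM in the wild-type library, with UMIs in 7 of 8 and 7 of 7 cells. Gzmb stood at 490.8 against 33.3 CPM and at 663.5 against 1.79 CPM, from 5 knock-in and 4 wild-type cells. Lgals1, a galectin of activated T cells, stood at 3318 against 381 CPM and at 3062 against 229 CPM. S100a6 stood at 1728 against 367.5 CPM and at 1786 against 161 CPM. These genes were higher in Gzmk-positive members in both libraries, as was Tox, a factor of chronically stimulated T cells, at 177 against 24 CPM and 128 against 23.2 CPM. Gzmk-positive members held 50935 UMIs in the knock-in and 39189 in the wild-type library, so the Tox values come from few UMIs. Tox was not among the genes read again without cycling cells.

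Naive and central memory genes stood lower in Gzmk-positive members. Klf2, a factor of quiescence and of exit from tissue, stood at 373 CPM in Gzmk-positive against 2016 CPM in Gzmk-negative knock-in members, and at 179 against 1365 CPM in the wild-type library. Il7r stood at 98.2 against 515 CPM and at 204 against 514.5 CPM, but closer without the cycling cells described below. Ccr7 stood at 78.5 against 435 CPM in the knock-in library, and it was found in 0 of 7 wild-type Gzmk-positive members, which allows up to 41.0% of such cells to have a UMI and does not bound how many express the gene. Of 13 tested naive genes 9 were lower, with medians of -1.83 and -1.33; the median over both libraries was -0.41 with cells thinned to 1000 UMIs. By class totals Ctla2a was close, at 903 against 939.9 CPM and 817 against 900.3 CPM, but TMM factors put its log2 ratio at -0.91, past the 1.5-fold limit. Without cycling cells Ctla2a stood at 658 against 941 CPM in the knock-in and 1391 against 899 CPM in the wild-type library. Those values rest on 11 and 24 UMIs in Gzmk-positive members, and the libraries gave opposite orders. Eomes had log2 ratios of 0.64 and 0.96 that TMM factors reduced to about 0.

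Counts over all genes in this comparison depend on the scaling. Of 2356 tested genes, 662 (28.1%) were higher and 153 (6.49%) lower in Gzmk-positive members in both libraries, with a median log2 ratio of 0.44. Ribosomal protein genes made up 25.9% of Gzmk-positive and 43.1% of Gzmk-negative knock-in members' UMIs, and 28.6% and 45.8% in the wild-type library. TMM factors moved the ratios by -0.81 and -0.80 and gave 147 higher and 577 lower genes, and a total without ribosomal protein and mitochondrial genes gave 300 and 344. By class totals 8 of 12 tested cytotoxic genes were higher.

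Cell cycle genes were also higher in Gzmk-positive members, 11 of 11 tested, with medians of 2.37 and 2.74. At least 10 UMIs of Mki67, Top2a, Stmn1, Birc5 and Pclaf were found in 2 of 8 knock-in and 2 of 7 wild-type Gzmk-positive members, against 3 of 174 (1.72%) and 1 of 126 (0.794%) Gzmk-negative members. Without these cells Nkg7 stood at 1315 CPM in the 6 knock-in Gzmk-positive members against 628.5 CPM, and at 1276 against 437 CPM with 5 wild-type ones. S100a6 stood at 957 against 316 CPM and at 579.8 against 161 CPM, and Klf2 at 538 against 2074 CPM and 174 against 1376 CPM. Gzmb then rested on 4 and 2 UMIs. Of 2255 tested genes, 730 (32.4%) were higher and 57 (2.53%) lower. A sum of 0 is placed at 3 counts, which make a high CPM in so few cells. A gene without a UMI there can thus count as higher, and how many did was not tested. The order of Nkg7, S100a6 and Klf2 thus held without cycling cells. Lgals1 stood much closer, at 777 against 344 CPM and 348 against 203 CPM. Il7r stood closer too, at 299 against 539 CPM in the knock-in library. In the wild-type library it stood at 464 against 526 CPM, within the 1.5-fold limit. These Il7r values rest on 5 and 8 UMIs in Gzmk-positive members. The median of the cell cycle list, which shares genes with the choice of the cells left out, was 1.04, and that of the naive list was -0.55. These medians place zeros in the same way. Stmn1 gave 1 and 0 UMIs in these Gzmk-positive members, at 59.8 against 53.1 CPM and at 0 against 27.4 CPM. Hmgb2 stood at 1136 against 767 CPM and at 1507 against 629 CPM. The median therefore does not show cell cycle RNA beyond the cells left out.

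**Figure D5:**
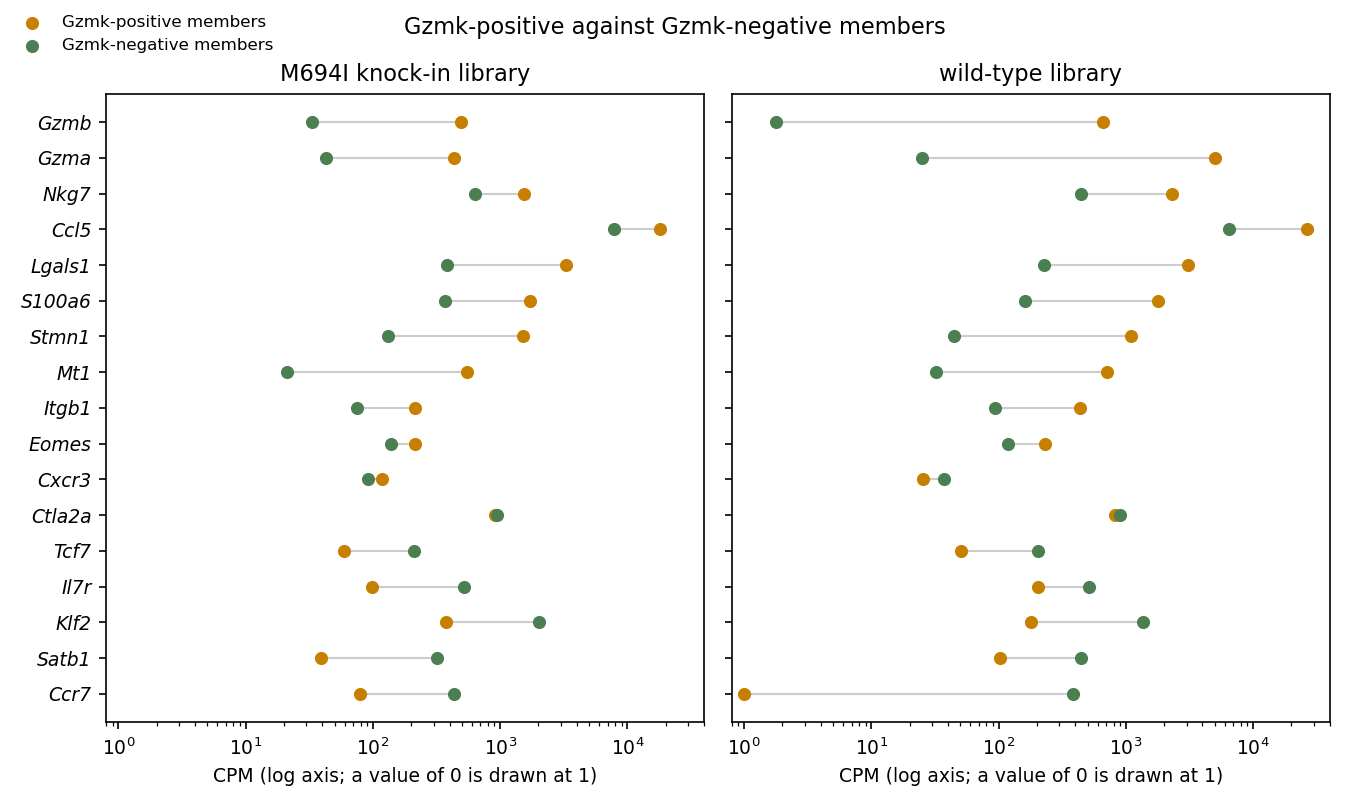
CPM of 17 genes (x axis, log scale, with a value of 0 drawn at 1) in Gzmk-positive and Gzmk-negative members of the knock-in library (left, 8 and 174 cells) and the wild-type library (right, 7 and 126 cells). With cycling cells included, Gzmb, Nkg7, Lgals1 and S100a6 are higher and Klf2, Il7r and Ccr7 lower in Gzmk-positive members in both libraries. Il7r stands closer without those cells. Ctla2a is close at this scaling and with those cells, and TMM factors put it at -0.91.

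T cell receptor variable segments, which lie far from the sequenced 3' end, were seen in few members. A Trbv UMI was found in 21 knock-in members (11.5%), from 13 segments, and in 11 wild-type members (8.27%), from 6. A Trav UMI was found in 22 and 20 members, each from 18 segments. No clonal make-up was read from these counts.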

How the data were processed

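Gene expression was measured in spleen cells of 1 M694I knock-in and 1 wild-type library with 10x Genomics 3' v3.1 chemistry, per the labels. The authors deposited counts of UMIs for each gene and barcode, not normalized; their headers name Cell Ranger 6.1.2, per the file headers, whereas Cell Ranger 7.1.0, Seurat 5.0.3 and mm10 come from the submitters' processing notes. How barcodes were picked is not stated there. Of 32285 features, 32235 (99.85%) matched the GENCODE annotation of GRCm38 by identifier, which gave gene positions.

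A cell needed 500 UMIs, 200 genes and a mitochondrial share below 10%. This left 24739648 knock-in and 31526374 wild-type UMIs, of which members held 802041 and 598993. NK cells had no Cd3, Cd79a, Ms4a1 or Cd4 UMI and at least 2 of Ncr1 and Klrb1c; Gzmk-positive members had at least 1 Gzmk UMI. The gates alone removed doublets, and Scrublet (scanpy 1.11.5, expected rate 0.08) served as an alternative. UMIs were summed per library and class and scaled to CPM. Log2 ratios carry exact conditional binomial intervals and shares exact Clopper-Pearson intervals, both at 95%; a sum of 0 was placed at 3 counts. Genes entered with a mean of at least 50 CPM and at least 40 UMIs and were counted at 1.5-fold. Cells were not used as replicates, so there are no p-values.

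For each comparison, named genes came from the 10 highest and 10 lowest ratios, the given markers, the genes of the gate and the largest and best known members of 23 lists (417 genes). Receptor segments, clone names and genes that are haemoglobin, sex-linked, mitochondrial or ribosomal were left out. The members and lists were chosen with earlier results of these data known.

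Alternatives tried were: mitochondrial share under 5%; 1000 UMIs with 500 genes; Scrublet calls removed; 1, 5 or 10 Ccl5 UMIs; thinning to 1000 UMIs; TMM factors from edgeR 4.0.16 in R 4.3.3; totals free of ribosomal protein and mitochondrial genes; other floors; equal weight per cell; and NK cells with 1 Ncr1 or Klrb1c UMI. Leaving out shared barcodes, cells with 10 or more class II UMIs or cells with 10 or more cycling UMIs was chosen after seeing the data, as were the Gzmk counts under all settings. Work was done in Python 3.11.15 (numpy 2.4.6, scipy 1.17.1, pandas 2.3.3, matplotlib 3.10.9), and the ratios were tested on simulated data. The simulated class sums were Poisson counts, without UMIs gathered in single cells. They therefore check the code and not the intervals of genes held by few cells. Promoter windows are those of RefSeq on GRCm38.p6. Results on some genes are not reported here.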

Additional observations from a re-analysis of the deposited data

Results flagged for a closer look

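The genes below had ratios of opposite sign in the libraries; the difference between the libraries was not tested. Cd74 had a log2 ratio of members over the other CD8 T cells of 1.97 in the knock-in and -1.12 in the wild-type library, and of members over NK cells of 2.39 and -2.65. Against NK cells, Cst3 stood at 0.84 in the knock-in and -0.96 in the wild-type library, Stmn1 at 0.77 and -1.93, Csk at 1.44 and -0.91, Sp100 at 0.62 and -0.62, and Zap70, a kinase of the T cell receptor, at -0.63 and 1.23. The NK groups held 47 and 64 cells. In knock-in members 1 cell held 258 of the 291 Cd74 UMIs and 189 of the 255 Cst3 UMIs.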

How the results depend on the processing

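Values depend on 1 library per genotype, so depth and counting error bound what they show: most lectin genes fell under the level needed except against NK cells, and the Gzmk comparison rests on 15 cells. No paired analysis was possible because each genotype has 1 library, and no library could be left out. Over the alternatives, 110 shares and gene counts kept their value within the spread and 32 moved; of list medians 758 held, 24 moved and 2 reversed; of named genes 1235 held, 80 moved and 9 reversed. The log2 ratio of the member share of CD8 T cells ranged from -0.02 to 0.32.

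Thinned to 1000 UMIs, the log2 ratio of the Gzmk-positive share was -2.07, from 1 knock-in and 2 wild-type cells. Thinning changed how many genes were tested. Between the libraries it gave 103 higher and 43 lower of 812 genes, against 174 and 92 of 2083 without thinning. It gave 88 and 95 of 2171 genes against the other CD8 T cells and 280 of 1220 lower than NK cells. By Gzmk it gave 197 and 50 of 812. Between the libraries Psmd12 was then at -0.24 and Stat5b at 0.14. TMM factors gave 323 and 218 genes against NK cells and 147 and 577 by Gzmk, where the checkpoint list stood at -0.091, the interferon gamma list at -0.15 and Eomes at -0.004. A total without ribosomal protein and mitochondrial genes gave 115 genes higher between the libraries, 300 and 232 against NK cells, and 300 and 344 by Gzmk. All genes with at least 1 UMI gave 2403 and 2805 of 12077 between the libraries and 1321 and 740 of 11563 against the other CD8 T cells. They gave 318 and 4124 of 10450 against NK cells and 6272 of 9889 higher by Gzmk. More genes enter here, and a sum of 0 is placed at 3 counts. In a small class those 3 counts make a high CPM, so a gene without a UMI there can count as higher. These counts are therefore no measure of expression, and the part of each was not tested. A floor of 100 CPM and 100 UMIs leaves fewer genes. The counts were then 54 and 21 of 1017 between the libraries and 25 and 14 of 1033 against the other CD8 T cells. They were 308 of 1231 lower than NK cells, and 296 and 95 of 1135 by Gzmk. Without cells of 10 or more class II UMIs, Cd74 stood at -0.99, H2-Aa and H2-Ab1 at -0.80 and H2-Eb1 at -1.39 between the libraries. Without cells of 10 or more cycling UMIs, Gzma stood at 1.37 between the libraries and Lef1 at 0.27 by Gzmk. Of 2255 genes tested there, 57 were lower by Gzmk. Where neither fewer cells nor a change in the genes entering shows the cause, the cause was not tested.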
